A study of Mus musculus with 25 samples.

Results

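Integrin, collagen and laminin genes were compared between αTC1 and βTC6, mouse endocrine cell lines that serve as models of the islet alpha cell and the islet beta cell. The members were the genes of the RNA-seq tables whose symbol is that of an integrin subunit (Itga or Itgb), a collagen chain (Col) or a laminin chain (Lama, Lamb or Lamc), and the ATAC-seq peaks whose annotated nearest gene has such a symbol. The rule took 80 of the 24439 genes, namely 26 integrin, 43 collagen and 11 laminin genes. It also took 304 of the 65053 consensus peaks, of which 88 were nearest to an integrin gene, 174 to a collagen gene and 42 to a laminin gene. No measured value entered the choice. The peaks belonged to 62 genes, 1 of which, Col26a1, has no row in the RNA-seq tables, and 19 members had no peak.

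Both lines come from tumours of transgenic mice that express the SV40 large T antigen, under the glucagon promoter for αTC1 (alpha TC1 clone 6, a clone) and under the insulin promoter for βTC6 (beta-TC-6). The lines were grown in different formulations of Dulbecco's Modified Eagle's Medium, αTC1 with a lower share of serum and with added HEPES, non-essential amino acids, albumin and glucose, and βTC6 with a higher share of serum and added pyruvate, so line and medium cannot be told apart. The paper does not state the glucose of the base media, so the added glucose does not tell which line had more. ATAC-seq, in which a transposase inserts sequencing adapters into open chromatin, was run on 5 replicates of each pure line and on 9 mixtures of counted cells holding 10% to 90% αTC1 in steps of 10%. Stranded mRNA-seq with ERCC spike-in controls was run on 3 replicates of each line. Nothing in the sources tells if replicates were grown as separate cultures, and the p-values measure the spread between these samples, which may be technical. In bulk cultures, fewer cells with a gene on and less RNA per cell cannot be told apart.

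RNA-seq libraries held between 21954031 and 26033482 expected counts, and pure ATAC-seq libraries between 4397851 and 10374903 reads in peaks. The labels were checked against hormone and transcription factor genes. Of 6 alpha cell markers, 5 were higher in αTC1, all but Ttr, and 7 of 7 beta cell markers were higher in βTC6, by the thresholds given below. Of markers for other cells of an islet, Acta2, Dcn, Lum, Thy1 and Postn (mesenchyme), Cdh5, Kdr and Emcn (endothelium) and Ptprc, Emr1 and Cd3e (immune cells) had at most 3 counts in every library. In the same lists, Pdgfra (1.04 to 1.17 FPKM in αTC1, 0.13 to 0.28 in βTC6) was called higher in αTC1. Esam (0.1 to 0.19 and 4.3 to 6.16) was called higher in βTC6. Vwf was at 2.32 to 2.57 FPKM in αTC1 and 1.92 to 2.75 in βTC6, and Cd68 at 0.92 to 1.2 and 2.02 to 2.18. Summed over each list, 9 mesenchymal markers lay between 1.8 and 2.16 FPKM in the αTC1 libraries, against 0.5 to 0.78 in βTC6. For 7 endothelial markers the sums were 2.59 to 2.82 against 6.45 to 8.86, and for 7 immune markers 1.3 to 1.7 against 2.16 to 2.32. For 7 duct and acinar markers they were 9.17 to 9.48 against 27.5 to 50.1, where the βTC6 sum was nearly all Krt7 (26.67 to 49.91 FPKM) while Sox9 (4.05 to 4.42 against 0) and Cela1 (3.58 to 3.7 against 0.14 to 0.82) were higher in αTC1. For 4 Schwann cell markers they were 2.39 to 2.55 against 1.25 to 3.14. The part of these genes in the results was not tested.

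Integrins are receptors made of an alpha and a beta subunit that join the cytoskeleton to the matrix outside the cell, and the alpha subunit largely sets whether laminin, collagen or an RGD sequence in other proteins is bound. Laminins are trimers of an alpha, a beta and a gamma chain and, with the network of type IV collagen, build basement membranes. Other collagens form fibrils, decorate them or span the plasma membrane. In islets, endocrine cells touch the basement membrane of the capillaries, which is laid down largely by endothelial cells, and beta cells attach to it through integrins that hold the beta1 subunit.

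The first question was which of these genes differ in RNA between the lines. Genes entered the test if every replicate of αTC1 or every replicate of βTC6 reached 1 FPKM (reads scaled by transcript length and library depth), and were called when the false discovery rate (FDR) was below 5% and the log2 fold change (log2FC) beyond 2 in size. A positive log2FC means higher in βTC6. It is given with its standard error (SE), and adjusted p-values for RNA come from edgeR's quasi-likelihood test with Benjamini-Hochberg adjustment over 12195 genes. The filter left 19 of the 80 members, 9 through both lines, 7 through βTC6 only and 3 through αTC1 only, and the 10 that passed through a single line were bound to be high there. Called higher in βTC6 were 6 members, against 10.2% of all genes tested, and called higher in αTC1 were 3, against 4.08%. The median log2FC of the 19 was 0.52, next to 0.0094 over all genes tested. All 9 calls were of members that had entered through the line where they are high, so these counts are given as a description and nothing is read from them. Of all genes tested, 81.1% of those that entered through βTC6 only were called higher there and 57.8% of those that entered through αTC1 only, against 2.71% and 1.54% of those that entered through both. By family the calls were 8 of 9 tested collagens, 1 of 3 laminins and 0 of 7 integrins, and 8 of those collagens but 1 of those integrins had entered through a single line. Of those 7 integrins, 6 had an unadjusted p under 0.05 and DESeq2 also called 0. By the FDR alone, 2 of them were higher in βTC6 and 4 in αTC1, where 38.7% and 36% of all genes tested were. With limma on log2(FPKM + 1), a scale that shrinks changes of low genes, the same thresholds called 2 members higher in βTC6 (Col6a3 and Lamb1) and 1 higher in αTC1 (Col11a2), against 5.76% and 2.27% of all genes tested.

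**Figure D1:**
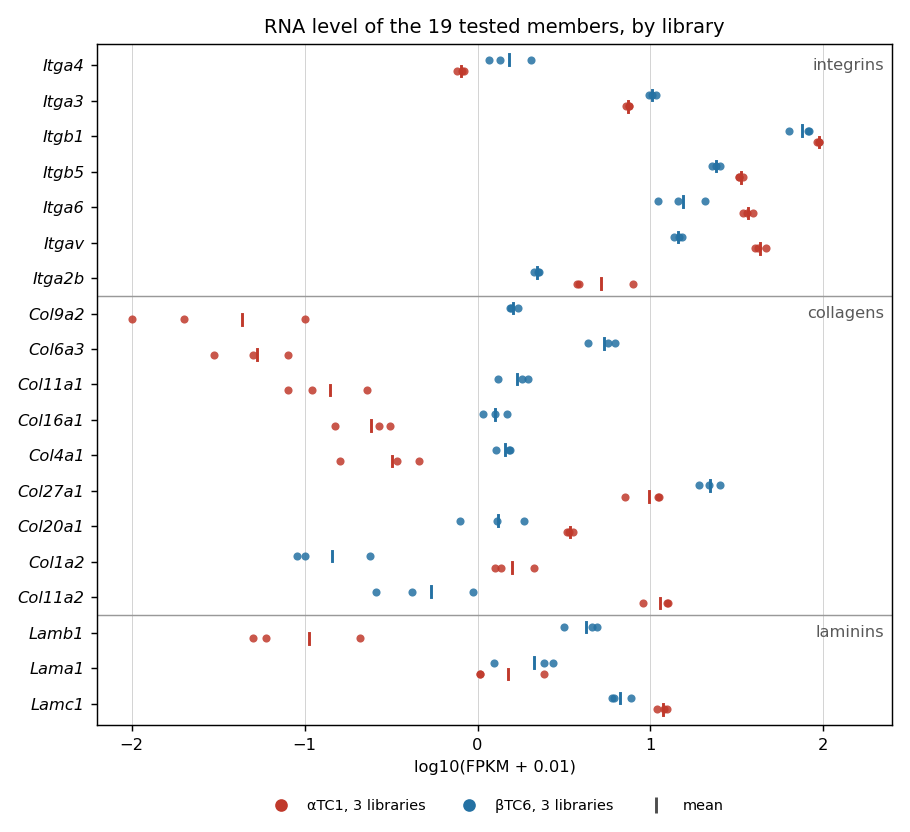
RNA level of the 19 tested members on a log10(FPKM + 0.01) axis, with 1 point per library (3 of each line) and a bar at the mean. Itgb1 is highest at 93.9 and 75.8 FPKM, and the lines lie farther apart for most collagens and for Lamb1, which entered through a single line, than for the integrins, of which 6 of 7 entered through both.

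Itgb1 (ENSMUSG00000025809, mm9 chromosome 8, 131209554 to 131257100), which encodes the beta subunit shared by most matrix-binding integrins, had the highest level of any member in both lines. Its FPKM was 92.46, 94.55 and 94.56 in the αTC1 libraries and 81.96, 82.13 and 63.17 in the βTC6 libraries. The groups did not overlap in FPKM, but the count test did not separate the lines (log2FC -0.18, SE 0.11, adjusted p = 0.163). Next in αTC1 came Itgav, Itga6 and Itgb5, where the ranges of Itga6 and Itgb5 overlapped. In βTC6 the order was Itgb5, the collagen Col27a1, Itga6 and Itgav, and each of these overlapped its neighbour.

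The laminin-binding alpha subunits Itga6 and Itga3 moved in opposite directions. Itga6 (mm9 chromosome 2, 71583673 to 71696473), a laminin receptor chain of epithelia, was at 36.35, 34.31 and 39.22 FPKM in αTC1 and 20.55, 10.99 and 14.46 in βTC6, a log2FC of -1.30 (SE 0.20, adjusted p = 2.67e-04). Itga3, another laminin receptor chain, was at 7.19, 7.53 and 7.53 FPKM in αTC1 and 10.81, 9.79 and 10.18 in βTC6, a log2FC of 0.52 (SE 0.08, adjusted p = 2.66e-04). Both differences passed the FDR but not the fold threshold, and in neither gene did the groups overlap. Itga7, the third laminin-binding chain, was under the filter at 0.29 ± 0.02 FPKM in αTC1 and 0.09 ± 0.04 in βTC6 (SD, n = 3). Itga3, Itga7 and the other integrins and low collagens and laminins outside the naming rule of the methods below were picked out after their values were seen.

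Among the chains that bind RGD sequences, Itgav (mm9 chromosome 2, 83564554 to 83647073), the alpha subunit of the vitronectin receptors, was lower in βTC6. It stood at 40.08, 42.18 and 46.58 FPKM in αTC1 and 15.31, 13.64 and 14.58 in βTC6 (log2FC -1.45, SE 0.09, adjusted p = 6.25e-07). Its partner Itgb5 was at 33.2 ± 1.13 and 24.0 ± 1.30 FPKM (SD, n = 3), a log2FC of -0.41 (SE 0.08, adjusted p = 9.90e-04). Itgav also pairs with Itgb1, Itgb3, Itgb6 and Itgb8, and of these Itgb3 and Itgb8, both low, differed in opposite directions when the filter was left out. Itgb8 (mm9 chromosome 12, 120396495 to 120477275), which with Itgav binds latent TGF-beta, had 0 counts in each αTC1 library and 108, 85 and 25 in βTC6. This is at least 23.2-fold higher against a floor of 3 counts per library, with an adjusted p of 2.60e-05 from edgeR. Itgb3, the beta subunit of the platelet and vitronectin receptors, had 11, 6 and 16 counts in αTC1 and 1, 1 and 2 in βTC6, an 8.48-fold ratio in favour of αTC1 (95% exact binomial interval 3.02 to 33.0, which covers counting error only, as do all such intervals here). Itga2b, the alpha subunit that pairs with Itgb3 on platelets, was at 3.83, 3.77 and 7.89 FPKM in αTC1 and 2.25, 2.11 and 2.22 in βTC6 (log2FC -1.72, SE 0.35, adjusted p = 1.64e-03). The third αTC1 library held the highest value of Itga2b by a wide margin.

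The collagen-binding alpha subunits all lay under the filter, and Itga1 and Itga10 had counts in every library of both lines. Itga2, the collagen receptor chain of epithelia and platelets, had 0, 1 and 2 counts in αTC1 and 132, 116 and 76 in βTC6, a 105-fold ratio (interval 35.6 to 512), and its FPKM in βTC6 was 0.99 ± 0.24 (SD, n = 3). Itga1 was at 1.05 ± 0.44 FPKM in αTC1 and 0.43 ± 0.15 in βTC6, and Itga10 at 0.96 ± 0.22 and 0.61 ± 0.07. Itga11 had at most 2 counts in any library. Without the filter, Itga1 (log2FC -1.26, SE 0.32, adjusted p = 4.25e-03) and Itga10 (-0.92, SE 0.24, adjusted p = 4.67e-03) were higher in αTC1 by the FDR, while Itga2 was called higher in βTC6. Itga1 overlaps Pelo on the same strand, and reads in the shared part could be assigned to either.

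Itga4 (mm9 chromosome 2, 79095583 to 79173280), a subunit that binds VCAM-1 and fibronectin, was at 0.80, 0.83 and 0.75 FPKM in αTC1 and 2.03, 1.16 and 1.34 in βTC6 (log2FC 0.89, SE 0.22, adjusted p = 4.61e-03, which became 0.115 with ERCC scaling). It overlaps Cerkl on the other strand, and counting did not use strand, so reads of the shared part cannot be told apart. Its relative Itga9 had 1, 0 and 0 counts in αTC1 and 16, 8 and 9 in βTC6. Among the alpha subunits named for leukocytes, Itgal had 3, 6 and 2 counts in αTC1 and 112, 144 and 75 in βTC6, while Itgam had 34, 31 and 31 counts in αTC1 and 0, 0 and 1 in βTC6. Their common partner Itgb2 had between 1 and 8 counts in every library, and Ptprc, carried by all leukocytes, at most 3.

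The 8 called collagens all reached 1 FPKM in every library of a single line, and Col27a1, which did so in both, was not called. Col6a3 (ENSMUSG00000048126, mm9 chromosome 1, 92663435 to 92740529), a chain of the beaded filaments of type VI collagen, was at 0.07, 0.02 and 0.04 FPKM in αTC1 and 4.32, 6.20 and 5.67 in βTC6. Counts in αTC1 were 2, 1 and 3, and the ratio of summed counts was 142-fold (interval 65.0 to 388, adjusted p = 1.17e-07 from edgeR). Col9a2 (ENSMUSG00000028626, mm9 chromosome 4, 120711990 to 120727927), a chain of the fibril-associated type IX collagen, had 0, 1 and 1 counts in αTC1 and 129, 117 and 113 in βTC6, a 175-fold ratio (interval 48.0 to 1447, adjusted p = 4.34e-07 from edgeR). In FPKM these βTC6 values were 1.70, 1.53 and 1.56, so the change was large at a low level.

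Col11a1 (ENSMUSG00000027966, mm9 chromosome 3, 113733458 to 113923636), a fibrillar chain that helps to set the width of fibrils, was at 0.07, 0.10 and 0.22 FPKM in αTC1 and 1.95, 1.80 and 1.31 in βTC6 (log2FC 4.33, SE 0.42, adjusted p = 1.54e-05). Col16a1, a fibril-associated collagen, was at 0.23 ± 0.08 FPKM in αTC1 and 1.26 ± 0.21 in βTC6 (log2FC 3.24, SE 0.24, adjusted p = 2.49e-06). Col27a1, the collagen with the highest level in βTC6, was at 11.24, 11.08 and 7.09 FPKM in αTC1 and 25.17, 21.96 and 19.08 in βTC6. Its log2FC of 1.2 (SE 0.17, adjusted p = 1.81e-04) passed the FDR but not the fold threshold.

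The highest collagen in αTC1 was Col11a2 (ENSMUSG00000024330, mm9 chromosome 17, 34176382 to 34203630), which forms type XI collagen together with Col11a1. It was at 12.50, 12.57 and 9.07 FPKM in αTC1 and 0.93, 0.25 and 0.41 in βTC6 (log2FC -4.79, SE 0.19, adjusted p = 7.05e-08). Col1a2 (ENSMUSG00000029661, mm9 chromosome 6, 4454814 to 4491543), a chain of type I collagen, was at 1.26, 1.35 and 2.12 FPKM in αTC1 and 0.23, 0.09 and 0.08 in βTC6 (log2FC -3.55, SE 0.39, adjusted p = 3.21e-05). Col20a1, a fibril-associated collagen, was at 3.57, 3.39 and 3.30 FPKM in αTC1 and 0.78, 1.85 and 1.28 in βTC6 (log2FC -2.4, SE 0.20, adjusted p = 4.83e-06). None of these groups overlapped.

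In types XI, IX and VI, chains that assemble with each other differed in opposite directions. Col11a1 was higher in βTC6 and Col11a2 in αTC1, and Col2a1, which gives the remaining chain of the trimer, had at most 15 counts in any library. Without the filter Col2a1 was called higher in βTC6, with 0, 2 and 4 counts in αTC1 and 15, 7 and 8 in βTC6 (log2FC 2.17, SE 0.76, adjusted p = 0.0264 from edgeR). In type IX collagen, Col9a2 was higher in βTC6, whereas Col9a3 had 51, 38 and 38 counts in αTC1 and 14, 4 and 12 in βTC6 (log2FC without the filter -2.17, SE 0.43, adjusted p = 7.19e-04) and Col9a1 had at most 1. Col9a3 overlaps Tcfl5 on the other strand. In type VI collagen, Col6a3 and Col6a6 (a 123-fold ratio, interval 47.6 to 451) were higher in βTC6. Col6a1, which the trimer also needs, had 7, 11 and 21 counts in αTC1 and 0, 0 and 1 in βTC6, a 40.1-fold ratio in favour of αTC1 (interval 6.79 to 1624). Col6a2, the highest type VI chain in αTC1, was at 0.21 ± 0.07 FPKM there and 0.09 ± 0.04 in βTC6. In type I collagen, Col1a2 was higher in αTC1, and Col1a1 stood at 0.14 ± 0.07 FPKM in αTC1 and 0.13 ± 0.03 in βTC6. Col3a1, the main partner of type I collagen in connective tissue, had no count in any library.

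Type IV collagen genes lie in head-to-head pairs that share a promoter region. Of the pair on chromosome 8, Col4a1 (ENSMUSG00000031502, mm9 11198423 to 11312826) was at 0.15, 0.45 and 0.33 FPKM in αTC1 and 1.53, 1.27 and 1.52 in βTC6 (log2FC 2.47, SE 0.27, adjusted p = 2.92e-05). Its neighbour Col4a2 (mm9 11312805 to 11449287) had 0, 1 and 0 counts in αTC1 and 16, 23 and 4 in βTC6, a 41.8-fold ratio (interval 7.12 to 1690). Both were higher in βTC6, and their annotated ends overlap by a few bases on opposite strands. Of the pair on chromosome 1, Col4a3 had 14, 12 and 8 counts in αTC1 and 6, 4 and 10 in βTC6, and Col4a4 at most 7 in any library. Neither passed the test without the filter (adjusted p = 0.191 and 0.165 from edgeR). Of the pair on the X chromosome, Col4a5 had 0 counts in all αTC1 libraries and 20, 7 and 19 in βTC6, at least 4.96-fold higher, and Col4a6 at most 2.

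Of the laminins, Lamb1 (ENSMUSG00000002900, mm9 chromosome 12, 31950099 to 32014509), the beta chain of the main laminins of basement membranes, was at 0.04, 0.05 and 0.20 FPKM in αTC1 and 4.88, 4.61 and 3.17 in βTC6. The log2FC of 6.43 (SE 0.28, adjusted p = 1.22e-07) was the only call among the 3 tested laminins. Lamb1 overlaps the predicted gene Gm11053 on the other strand, and counting did not use strand, so reads of the shared part cannot be told apart. Lamc1 (mm9 chromosome 1, 155066052 to 155179916), the gamma chain that most laminins share, was instead at 10.89, 11.98 and 12.43 FPKM in αTC1 and 7.75, 6.02 and 6.14 in βTC6 (log2FC -0.79, SE 0.10, adjusted p = 7.47e-05). The alpha chain Lama1 was at 1.03, 1.03 and 2.4 FPKM in αTC1 and 2.4, 1.23 and 2.74 in βTC6. The Lama1 groups overlapped, and the difference was not detected (log2FC 0.56, SE 0.37, adjusted p = 0.199). Without the third αTC1 library the log2FC was 1.1 (adjusted p = 0.0132 from edgeR), and a replicate block gave 0.61 (adjusted p = 0.0336 from edgeR). It was 0.36 without αTC1 replicate 1, 0.35 without αTC1 replicate 2 and 0.34 without βTC6 replicate 3, with adjusted p from edgeR between 0.423 and 0.485. Below the filter, the alpha chains Lama4 and Lama5 were higher in βTC6, Lama4 with 0, 2 and 0 counts in αTC1 and 110, 104 and 105 in βTC6, and Lama5 with 17, 26 and 33 against 191, 171 and 135. The other beta chains, Lamb2 and Lamb3, had at most 18 counts in any library, so αTC1 held a gamma chain at a level of 11.8 ± 0.79 FPKM next to beta chains that summed to 0.19. In βTC6 the beta chains summed to 4.33 FPKM, next to 6.64 ± 0.97 for Lamc1 (SD, n = 3).

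The 61 members outside the test had at most 1.61 FPKM in any library, and 13 of them had at most 3 counts in every library. Without the filter, edgeR tested 79 members among 19570 genes and called 26 higher in βTC6, against 12.8% of all those genes, and 8 higher in αTC1, against 5.21%. Of these, 20 and 5 were members that the filter had removed. The 20 were 5 integrins, 13 collagens and 2 laminins, and the 5 were 2 integrins and 3 collagens. Among the fibrillar collagens, Col24a1 stood out with 1, 3 and 1 counts in αTC1 and 128, 138 and 134 in βTC6, and Col5a3 with 23, 24 and 22 counts in αTC1 and 5, 2 and 1 in βTC6. Such genes are low enough that 1 library can hold most of the counts, as for Col17a1, whose βTC6 libraries held 59, 5 and 39 counts and overlapped those of αTC1.

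**Figure D2:**
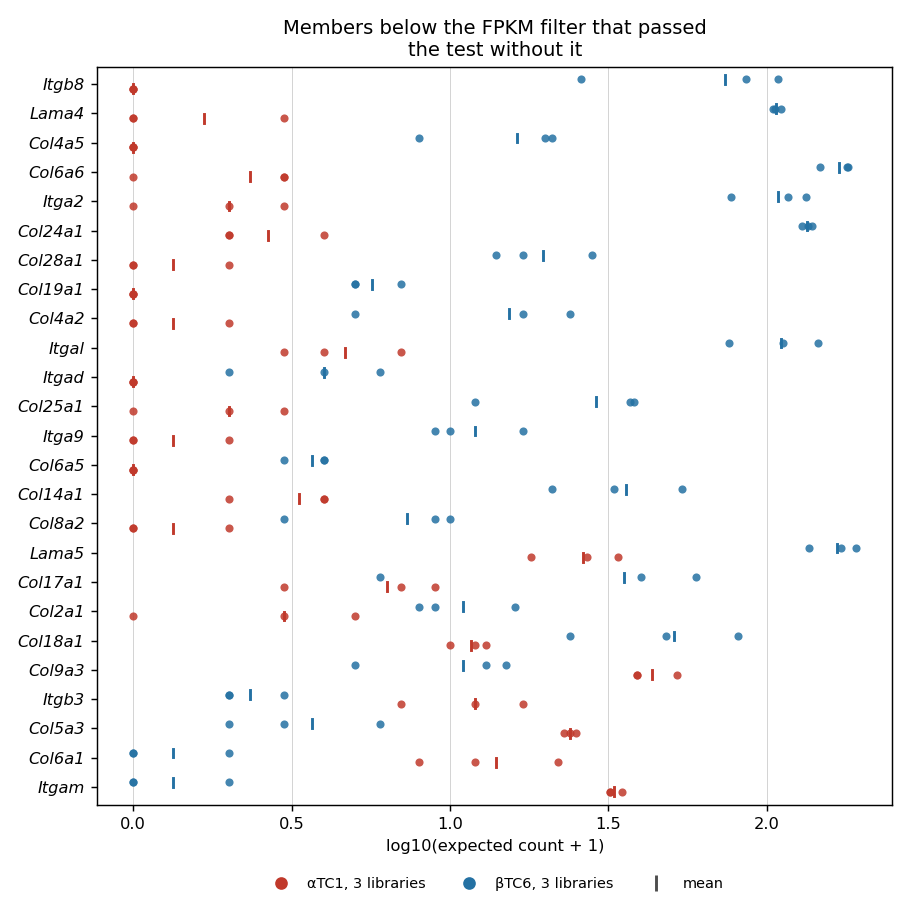
Expected counts of the 25 members that were under the FPKM filter and passed the thresholds when it was left out, on a log10(count + 1) axis with 1 point per library and a bar at the mean. Itgb8, Col4a5, Col19a1, Itgad and Col6a5 had 0 counts in every αTC1 library, and the last 5 genes of the plot, from Col9a3 to Itgam, were higher in αTC1.

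Other genes of the matrix and its receptors were taken from lists, whose counts stand beside 10.2% (βTC6) and 4.08% (αTC1) of all genes tested, or 38.7% and 36% by the FDR alone. The listed genes passed the same filter. Of all genes that entered through βTC6 only, 81.1% were called higher there, against 2.71% of those that entered through both lines. For αTC1 these shares were 57.8% and 1.54%. The route of entry was not counted for the lists, so nothing is read from their counts. Of 21 basement membrane partners, 7 were tested, 4 of them called higher in βTC6 and 1 in αTC1 (4 and 3 by the FDR alone). Npnt, a ligand of Itga8, had 0 FPKM in each αTC1 library and 4.78, 3.16 and 5.61 in βTC6, at least 168-fold higher. Ntn4, a netrin that binds laminin gamma chains, was at 33.47, 32.95 and 31.12 FPKM in αTC1 and 0.02, 0 and 0 in βTC6 (adjusted p = 2.59e-09 from edgeR). Nid1, a bridge between laminin and type IV collagen, and Sparc had at most 3 counts in every library.

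Of 32 listed genes for collagen synthesis and cross-linking, 20 were tested, with 4 higher in βTC6 and 2 in αTC1 (13 and 5 by the FDR alone). Bmp1, the protease that cuts the C-terminal propeptide of fibrillar procollagens, was at 3.31, 2.70 and 3.33 FPKM in αTC1 and 124.02, 113.15 and 104.12 in βTC6 (log2FC 5.35, SE 0.10, adjusted p = 1.69e-09). Leprel4, of the prolyl 3-hydroxylase family, was at 1.19 ± 0.28 FPKM in αTC1 and 23.6 ± 5.15 in βTC6. Serpinh1, the collagen chaperone, and Lox, a cross-linking enzyme, had at most 3 counts in every library of both lines.

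Of 34 integrin adaptors, 27 were tested, and 2 were called, both higher in βTC6. By the FDR alone 18 were higher in βTC6 and 6 in αTC1. The 2 were Kank1, which links talin to microtubules (0.18 ± 0.10 FPKM in αTC1 and 5.18 ± 0.91 in βTC6), and the kinase Src (0.53 ± 0.13 and 4.38 ± 1.2). Of 20 other matrix receptors, 14 were tested, with 4 higher in βTC6 and 2 in αTC1 (10 and 4 by the FDR alone). Cd44, the hyaluronan receptor, was at 0.04, 0 and 0 FPKM in αTC1 and 3.48, 3.97 and 3.63 in βTC6, and Sdc3, a syndecan, at 0.68 ± 0.40 and 8.63 ± 0.81. Of 32 matrix proteases and inhibitors, 16 were tested, with 3 higher in βTC6 and 1 in αTC1 (7 and 4 by the FDR alone). The 1 higher in αTC1 was Adam19, a membrane protease, at 3.02, 3.53 and 7.05 FPKM in αTC1 and 0, 0.01 and 0 in βTC6. Mmp16, a membrane metalloproteinase, was at 0.13 ± 0.21 FPKM in αTC1 and 2.23 ± 0.34 in βTC6. Of 27 matricellular proteins, 9 were tested and 1, Nov, was called (0.04 ± 0.01 and 2.45 ± 0.37 FPKM). By the FDR alone, 1 of them was higher in βTC6 and 6 were lower.

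The second question was where chromatin near these genes differs in accessibility. The deposited value of a peak is a TMM-normalized read count, that is the reads in the peak scaled to a common effective library size, and it was tested with limma on log2(value + 1) over all 65053 peaks, which supplies every adjusted p-value for peaks. The scale understates the change of low peaks. With the thresholds used for RNA, the calls were 51 member peaks higher in βTC6, against 12.9% of all peaks, and 24 higher in αTC1, against 5.38%. As shares of the 304 these are 16.8% and 7.89%. The median log2FC was 0.14 over member peaks and 0.0011 over all. With quantile normalization the sign turned, to -0.068 over member peaks next to -0.071 over all, and among peaks with a mean of at least 5 normalized reads the medians were -0.044 and -0.19. Quantile normalization called 37 member peaks higher in βTC6 and 25 higher in αTC1 (8.54% and 7.74% of all peaks), so that 59.7% of member calls were higher in βTC6 in place of 68%, and 52.5% of all calls in place of 70.6%. By family, 18 of 88 integrin peaks, 27 of 174 collagen peaks and 6 of 42 laminin peaks were higher in βTC6, and 4, 19 and 1 were higher in αTC1. In all 75 called peaks the 5 libraries of a line lay apart from the 5 of the other, but so they did in 65.1% of member peaks and in 63.9% of all peaks.

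The read bookkeeping of the study treats replicates 1 to 3 and replicates 4 and 5 of each line differently, so the calls were repeated within each. Replicates 1 to 3 gave 51 and 19 member peaks (12.5% and 4.82% of all peaks), and replicates 4 and 5 gave 52 and 24 (14.3% and 6.71% of all peaks). The pseudocount moved the counts most, to 9 and 3 with 5 added in place of 1 (2.56% and 1.26% of all peaks), and edgeR on the whole reads recovered from the values called 84 and 28 (21.2% and 8.82% of all peaks). Some chromosomes differed as a whole, with a median log2FC over all peaks of -0.79 on chromosome 6 (26 member peaks, 20 of them nearest to Col1a2) and -0.61 on chromosome 1 (42 member peaks), and the part of this in the calls there was not tested. On chromosome 14, where the median was 1.54, lay 0 member peaks.

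**Figure D3:**
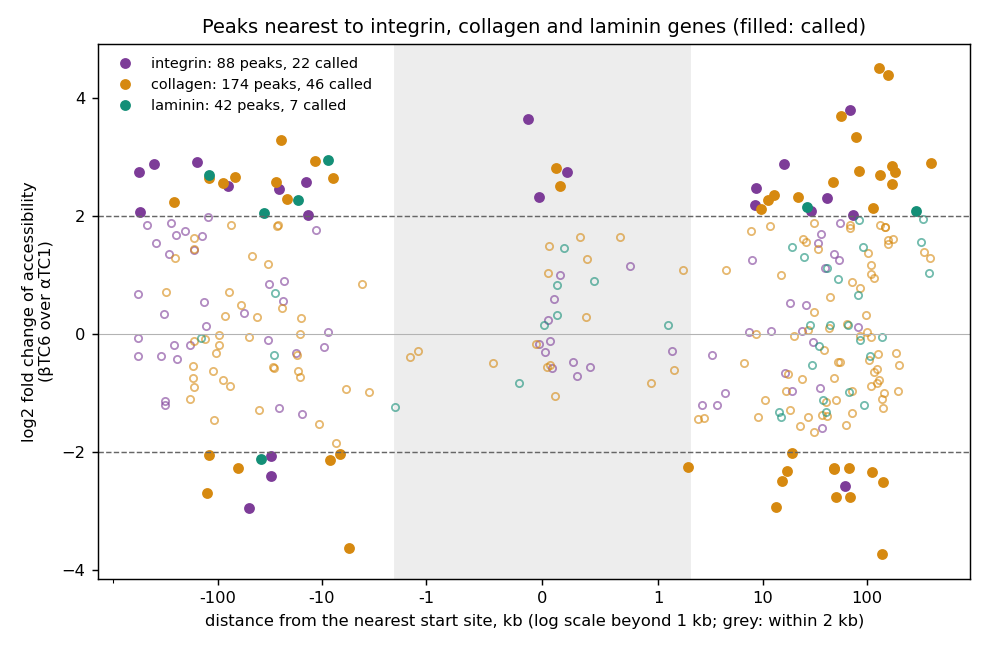
Log2FC of accessibility of the 304 member peaks (βTC6 over αTC1) against the distance of each from the nearest start site in kb, with a log scale beyond 1 kb and filled points for called peaks. Most called peaks lie outside the grey band of 2 kb around the start, 46 of 51 on the βTC6 side and 23 of 24 on the αTC1 side, as do 262 of the 304.

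Called peaks, like member peaks as a whole, lay mostly far from promoters. Of the 304, 13.8% were within 2 kb of a start site, 77.3% over 10 kb away, 51.6% in introns and 36.5% between genes. Of the 51 peaks higher in βTC6, 5 were within 2 kb of a start site, 41 were over 10 kb away, and 25 had their centre in an intron and 21 between genes by the GENCODE vM1 annotation. Of the 24 higher in αTC1, 1 was within 2 kb, 20 were over 10 kb away, and 16 lay in introns and 7 between genes. Over all peaks beyond 2 kb, 15.1% were higher in βTC6 and 6.53% in αTC1, so the member shares of 17.6% and 8.78% there were near those of all peaks. Within 2 kb, 11.9% of the 42 member peaks were higher in βTC6, against 5.51% of all such peaks, and 2.38% in αTC1, against 1.41%.

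The reference sequence at the centre of the member peaks with the largest moderated t-statistic is given here, since these sites separate the lines best. Each run of 300 bases is on the plus strand of mm9, and capitals mark matches to 5 motifs searched on both strands, namely TGTTTAC for forkhead factors, TAATTA for homeodomain factors, CATCTG for the E-box of NEUROD1, TGCTGAC for a MAF half-site and TGANTCA for AP-1. For Itgb8, whose peak of highest moderated t covers its start, the 200 bases before the annotated start are given on the strand of the gene. The first 3 sites are open in βTC6, the next 2 in αTC1, and the last is the Itgb8 promoter, open in βTC6.
Itga1 site, chr13:116298923-116299222: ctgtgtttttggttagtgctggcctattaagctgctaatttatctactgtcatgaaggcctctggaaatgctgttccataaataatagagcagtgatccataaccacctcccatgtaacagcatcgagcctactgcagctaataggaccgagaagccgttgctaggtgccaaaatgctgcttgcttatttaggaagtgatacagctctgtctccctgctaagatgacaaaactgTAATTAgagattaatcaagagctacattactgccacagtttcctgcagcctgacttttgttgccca
Col25a1 site, chr3:130013746-130014045: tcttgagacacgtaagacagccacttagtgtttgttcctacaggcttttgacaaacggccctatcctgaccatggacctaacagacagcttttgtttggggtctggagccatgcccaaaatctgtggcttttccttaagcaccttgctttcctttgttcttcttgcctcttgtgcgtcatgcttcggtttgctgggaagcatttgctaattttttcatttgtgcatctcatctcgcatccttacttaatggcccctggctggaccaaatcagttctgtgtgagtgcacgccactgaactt
Col11a1 site, chr3:113892258-113892557: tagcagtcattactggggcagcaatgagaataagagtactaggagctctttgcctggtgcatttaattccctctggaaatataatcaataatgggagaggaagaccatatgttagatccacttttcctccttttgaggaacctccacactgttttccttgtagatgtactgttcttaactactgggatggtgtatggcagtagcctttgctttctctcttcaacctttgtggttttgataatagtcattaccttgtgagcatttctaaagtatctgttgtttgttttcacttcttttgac
Col8a1 site, chr16:57760198-57760497: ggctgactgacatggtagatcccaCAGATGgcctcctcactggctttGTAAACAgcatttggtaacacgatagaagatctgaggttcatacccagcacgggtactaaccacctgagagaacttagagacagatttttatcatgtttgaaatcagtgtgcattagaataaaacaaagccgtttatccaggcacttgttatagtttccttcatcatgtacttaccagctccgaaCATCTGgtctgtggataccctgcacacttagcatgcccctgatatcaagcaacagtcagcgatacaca
Col4a1 site, chr8:11173248-11173547: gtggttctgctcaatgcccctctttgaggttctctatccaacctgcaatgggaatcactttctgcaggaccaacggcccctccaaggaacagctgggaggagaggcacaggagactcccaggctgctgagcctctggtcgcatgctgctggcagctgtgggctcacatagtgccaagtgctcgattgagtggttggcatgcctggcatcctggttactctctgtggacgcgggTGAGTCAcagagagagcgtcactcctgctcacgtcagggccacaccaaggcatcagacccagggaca
Itgb8 promoter, chr12:120477276-120477475: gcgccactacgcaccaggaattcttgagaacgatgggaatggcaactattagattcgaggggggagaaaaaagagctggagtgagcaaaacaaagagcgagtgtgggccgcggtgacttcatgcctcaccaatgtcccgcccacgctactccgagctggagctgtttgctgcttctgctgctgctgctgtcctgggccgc

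The Itga1 site lies between genes, 407 kb upstream of the start of Itga1, in a peak at chromosome 13 from 116298490 to 116299654. Its normalized read count was 9.94, 14.3, 10.8, 12.4 and 10.8 in the αTC1 libraries and 88.3, 87.0, 83.65, 95.9 and 104 in βTC6 (log2FC 2.88, SE 0.11, adjusted p = 2.17e-14 from limma). Every βTC6 library was far above every αTC1 library, although Itga1 RNA was higher in αTC1 by the FDR. The peak at the Itga1 start also went against the RNA, with 22.3 ± 4.26 in αTC1 and 45.4 ± 6.14 in βTC6 (SD, n = 5, log2FC 1.01, SE 0.13). Of the 22 peaks nearest to Itga1, more than any other member had, 4 were called higher in βTC6, the printed site among them, and all 4 lay upstream, between 25.9 and 572 kb.

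The Col25a1 and Col11a1 sites lie in introns of the gene they are named for, 130 and 159 kb into it. Col25a1 encodes a transmembrane collagen of neurons. At the Col25a1 site the αTC1 libraries held between 4 and 6 reads each, or 0.70, 0.84, 0.60, 0.68 and 0.72 after scaling, and the βTC6 values were 34.1, 41.8, 38.4, 33.7 and 41.7 (log2FC 4.5, SE 0.17, adjusted p = 2.17e-14 from limma). Its RNA was low, with 0, 2 and 1 counts in αTC1 and 36, 11 and 37 in βTC6. At the Col11a1 site the values were 0.84, 0.84, 1.95, 1.91 and 1.16 in αTC1 and 48.7, 45.1, 39.2, 53.9 and 48.5 in βTC6 (log2FC 4.39, SE 0.17, adjusted p = 5.70e-14 from limma). Both sites were nearly closed in αTC1, and the RNA of both genes was higher in βTC6.

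On the αTC1 side, the Col8a1 site lies between genes, 5.50 kb upstream of Col8a1, which encodes a short-chain collagen of vessel and eye. Its values were 80.7, 78.8, 78.3, 76.7 and 86.8 in αTC1 and 6.96, 4.92, 6.35, 4.14 and 6.01 in βTC6 (log2FC -3.62, SE 0.12, adjusted p = 6.53e-15 from limma). Col8a1 RNA had 4, 5 and 14 counts in αTC1 and 44, 36 and 13 in βTC6. Its groups overlapped and it was not called, but by the FDR alone it was higher in βTC6 without the filter (log2FC 1.91, SE 0.55, adjusted p = 9.04e-03), against the direction of the peak. The Col4a1 site lies beyond the end of that gene, 139 kb from its start, with 41.5 ± 2.27 in αTC1 and 2.31 ± 1.02 in βTC6 (SD, n = 5, log2FC -3.73, SE 0.17, adjusted p = 3.76e-13 from limma). This goes against the RNA of Col4a1, which was higher in βTC6. The other leading αTC1 peaks were in an intron of Itgb5, 62.2 kb from its start (32.5 ± 3.83 and 4.65 ± 0.82, log2FC -2.57), and 108 kb upstream of Col1a2 (90.8 ± 4.31 and 32.4 ± 3.03, log2FC -1.46, under the fold threshold).

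The motifs were chosen after the peaks were known, and a match is a run of letters in the central 300 bases, not a bound site. TAATTA was present in 9.86% of all peak windows, in 12 of the 51 member peaks higher in βTC6 (23.5%) and in 4 of the 24 higher in αTC1 (16.7%), next to 17.7% and 6.54% of all peaks called in these directions. CATCTG was present in 31.2% of all windows, in 12 of the 51 (23.5%) and in 13 of the 24 (54.2%), next to 31.4% and 54.7% of all called peaks. TGTTTAC was present in 8.80% of all windows, in 1 of the 51 and in 4 of the 24, next to 10.7% and 11.8% of all called peaks. For TGCTGAC these were 7.01%, 5 and 1, next to 7.38% and 9.05%, and for TGANTCA 14.5%, 5 and 4, next to 16.5% and 21.8%. No difference between these shares was tested.

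By gene, Col1a2, higher in αTC1 in RNA, had 6 of its 20 peaks called higher in αTC1 and 1 in βTC6. All 4 peaks nearest to Col5a1, a fibrillar chain with at most 12 counts in any library, were higher in αTC1, in an intron between 48.1 and 68.8 kb from its start. At least 3 peaks were higher in βTC6 for Itga1 (4 of 22), Itga4 (4 of 8), Itgb8 (3 of 5), Lamb1 (3 of 6), Col6a6 (3 of 4), Col11a1 (3 of 12), Col14a1 (3 of 9) and Col9a1 (3 of 16). The RNA of Itgb8, Lamb1, Col6a6, Col11a1 and Col14a1 was also called higher in βTC6 when no filter was set, and that of Itga4 passed the FDR alone. The RNA of Itga1 was higher in αTC1 by the FDR, and that of Col9a1 had at most 1 count. For Lamb1 the 3 peaks lay upstream at 8.68, 17.0 and 36.0 kb, and no peak was nearer to its start.

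The nearest gene is set by distance and need not be the gene that a peak lies in. The 3 peaks of Col9a1 that were higher in βTC6 lay in introns of Col19a1, whose RNA had 0 counts in each αTC1 library and 4, 6 and 4 in βTC6. A peak assigned to Itgax, at 20.2 normalized reads in αTC1 and 4.19 in βTC6, lay in an intron of Itgam, whose RNA was higher in αTC1. For the peaks called higher in βTC6, the assigned gene was called higher in βTC6 in RNA without the filter for 27 of 51, in αTC1 for 2 and in neither for 22. For those higher in αTC1 it was called in the same direction for 6 of 24, in the opposite one for 4 and in neither for 13, with 1 gene absent from the RNA-seq tables. Over all called peaks whose assigned gene was tested without the filter, the direction was the same for 40.4% of 6340 peaks higher in βTC6 and 20.4% of 2749 higher in αTC1, next to 52.9% of 51 and 26.1% of 23 member peaks. Member peaks share genes, 26 and 16 in all, and no difference between these shares was tested.

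The third question was whether RNA and promoter accessibility of a gene differ in the same direction. A peak within 2 kb of the start was present for 11 of the 19 tested members, and in 10 of them its log2FC had the sign of that in RNA (90.9%, next to 65.5% of the 9516 tested genes with such a peak). With the peak of largest absolute change among all those nearest to a gene, the count was 13 of 18 (72.2%, next to 65.2% of 10257 genes), and Col16a1, Col20a1, Col4a1, Itga6 and Itgav had opposite signs. Within 2 kb the exception was Col27a1, whose RNA was higher in βTC6 (1.2) and whose nearest peak was at 12.1 ± 2.07 in αTC1 and 10.6 ± 1.87 in βTC6 (log2FC -0.17, SE 0.16, adjusted p = 0.323 from limma). A further peak of Col27a1, 0.674 kb from the start, was higher in βTC6 (2.9 ± 0.58 and 11.2 ± 2.19, log2FC 1.64, SE 0.20, adjusted p = 3.24e-07 from limma). Genes are not replicates of each other, so the count is a description. Several called genes gave no value here, since the nearest peak was 2.72 kb from the start for Col16a1, 7.75 kb for Col4a1, 8.68 kb for Lamb1, 26.1 kb for Col9a2 and 68.2 kb for Col6a3, and Col11a2 had no peak.

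The size of the change often differed between RNA and promoter. At the Col11a1 promoter the peak was at 16.3 ± 2.91 in αTC1 and 34.4 ± 6.42 in βTC6 (SD, n = 5), a log2FC of 1.04 (SE 0.14, adjusted p = 8.74e-07 from limma), where the RNA changed by 4.33. Itga4 showed the reverse, with promoter values of 6.02, 3.51, 4.06, 6.41 and 5.92 in αTC1 and 42.7, 42.3, 41.0, 35.1 and 38.1 in βTC6 (log2FC 2.75, SE 0.15, adjusted p = 2.96e-12 from limma) and an RNA change of 0.89. At Col1a2, on chromosome 6, the values 1.91 kb from the start were 7.70, 8.99, 7.51, 6.28 and 8.67 in αTC1 and 1.14, 2.05, 0.81, 0.14 and 0.56 in βTC6 (log2FC -2.25, SE 0.24, adjusted p = 5.15e-08 from limma). The Lamc1 promoter was at 113 ± 6.45 in αTC1 and 63.8 ± 2.89 in βTC6, a change of -0.82 (SE 0.08, adjusted p = 9.05e-09 from limma) next to -0.79 in RNA, with chromosome 1 at a median of -0.61. With quantile normalization the Lamc1 promoter change was -0.33, and with ERCC scaling the RNA change of -0.80 lost the FDR (adjusted p = 0.141 from edgeR). Smaller changes past the FDR were those of the Itgav (-0.56), Itgb5 (-0.71), Itga6 (-0.47) and Itga3 (0.59) promoters. With quantile normalization the Itgav value was -0.16 (adjusted p = 0.408 from limma) and that of Itga6 -0.35 (adjusted p = 0.111 from limma), so both lost the FDR. The Lama1 promoter stood at 0.32 (adjusted p = 0.0606 from limma), and passed the FDR in 10 of its repeats, among them the replicate block (adjusted p = 2.80e-03 from limma), quantile normalization (0.68, adjusted p = 4.01e-04 from limma) and without αTC1 replicate 5 (0.45, adjusted p = 4.87e-03 from limma). It also passed without βTC6 replicate 1, 2 or 3, with adjusted p from limma between 0.0397 and 0.0496. At Itgb1, with 91.0 ± 2.72 and 84.8 ± 11.6, the promoter change of -0.11 was not detected (adjusted p = 0.276 from limma) and became 0.37 with quantile normalization, so its direction depends on the scaling. Away from that promoter, 1 peak of Itgb1 was called in each direction, 30.8 kb upstream (18.7 in αTC1 and 2.75 in βTC6) and 41.8 kb into the gene (1.47 and 11.3).

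**Figure D4:**
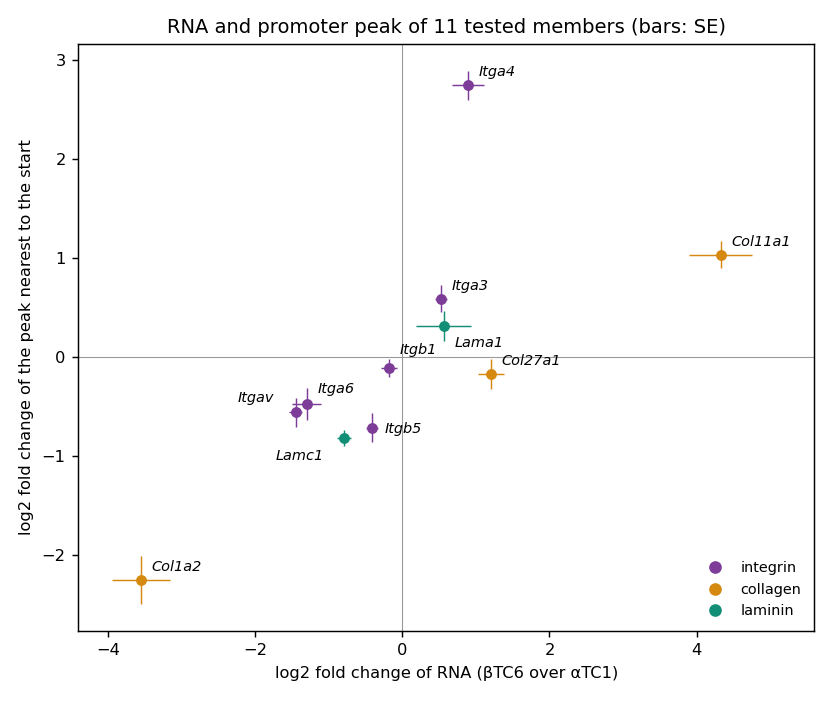
Log2FC in RNA (x axis) and of the peak nearest to the start within 2 kb (y axis), both βTC6 over αTC1, for the 11 tested members with such a peak, with bars of 1 standard error. Col11a1 lies far to the right and low, Itga4 high and near the middle, and Col27a1 alone lies on opposite sides of 0.

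Promoters of untested members showed some of the clearest differences. The Itgb8 promoter was at 2.52, 4.49, 4.66, 3.41 and 6.07 in αTC1 and 58.4, 57.8, 57.2, 70.6 and 71.5 in βTC6 (log2FC 3.65, SE 0.16, adjusted p = 1.57e-13 from limma), and its RNA was not detected in αTC1. The other promoters called higher in βTC6 were those of the untested Col6a6 (log2FC 2.81), Itga2 (4.32 and 25.4) and Col4a5 (1.26 ± 0.75 and 11.4 ± 1.54), and that of Itga4, a tested member. With Itgb8, all 5 genes were also higher in βTC6 in RNA by the FDR without the filter, as were 30.2% of all genes (27.2% were higher in αTC1). The Col4a3 promoter, shared with Col4a4, was at 9.46 ± 2.68 in αTC1 and 3.92 ± 0.36 in βTC6 (log2FC -1.05, SE 0.20, adjusted p = 8.07e-05 from limma), on chromosome 1. The Col6a2 promoter was at 4.42 ± 0.90 and 2.77 ± 0.52 (log2FC -0.52, adjusted p = 0.0279 from limma), but lost the FDR in 6 of its repeats, where adjusted p from limma lay between 0.0506 and 0.348. These were the replicate block, replicates 1 to 3 alone, replicates 4 and 5 alone, and the fits without αTC1 replicate 5, βTC6 replicate 1 or βTC6 replicate 5.

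The last question was how the called peaks behave in mixtures, which took no part in calling them. Peaks picked for a difference between the pure lines are bound to follow the share of a line, so the values are a description. The paper reports such a rise for its own differential and signature peaks. Over the 51 peaks higher in βTC6, the mean normalized read count was 3.75, 4.82, 7.41, 8.54, 11.4, 12.4, 13.7, 17.8 and 20.5 in the mixtures with 10% to 90% βTC6. The pure libraries averaged 2.2 ± 0.10 in αTC1 and 20.3 ± 1.80 in βTC6 (SD, n = 5). Every step of 10% raised the mean, with a Pearson r of 0.988 and a Spearman rho of 1 over the 9 mixtures, and r was 0.986 without the mixtures at both ends. Over the 24 peaks higher in αTC1, the means were 5.80, 9.01, 12.6, 12.7, 14.2, 17.8, 18.6, 21.1 and 24.4 with 10% to 90% αTC1, next to 3.31 ± 0.12 in pure βTC6 and 23.5 ± 1.24 in pure αTC1. Here r was 0.988 and rho 1, and r was 0.982 without the ends. The steps were uneven, with nearly equal means at 30% and 40% αTC1. For single peaks, rho with the share of the line was at least 0.8 in 47 of the 51 and in 24 of the 24. The share over all called peaks was not computed, so this is not read as a trait of member peaks.

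**Figure D5:**
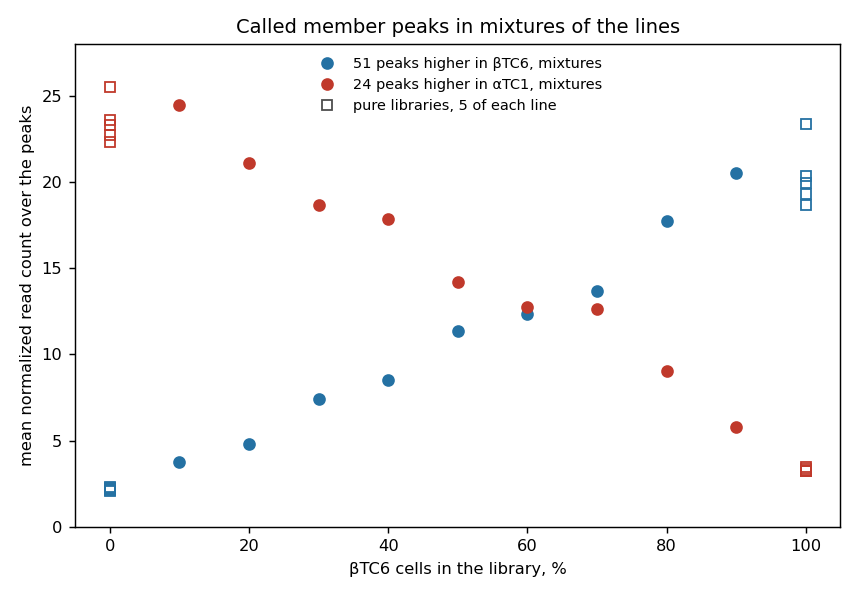
Mean normalized read count over the member peaks called in each direction, against the percentage of βTC6 cells in the library, with filled points for the 9 mixtures and open squares for the 5 pure libraries of each line. The 51 βTC6 peaks climb from 3.75 to 20.5 across the mixtures and the 24 αTC1 peaks descend from 24.4 to 5.80.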

How the data were processed

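Accessibility and RNA were measured in αTC1 and βTC6 cells and, for accessibility, in mixtures. Per the labels, reads were processed with Trimmomatic 0.32, BWA 0.7.9a, Picard 1.95, MACS2 2.1.0 and DiffBind 2.2.5 for ATAC-seq on mm9, and with Trim Galore 0.40, Bowtie2 2.23 and RSEM 1.2.12 for RNA-seq. The ATAC-seq signal deposited by the authors is a TMM-normalized read count per consensus peak, and 100% of its values were whole multiples of the value of 1 read in their library, within 0.01 reads, so whole reads were recovered. The deposited expected counts and FPKM are RSEM estimates per Ensembl gene, FPKM with 2 decimals, and RSEM was run at its default settings, which do not use strand. Library names linked the columns to samples, with 0 columns left over.

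Expected counts were rounded, scaled by TMM and tested with edgeR 4.0.16 in R 4.3.3, without the RUVSeq step of the study, for which ERCC scaling was an alternative. Standard errors for genes were obtained from the log2 fold change and the root of its F statistic. Peaks were tested with limma 3.58.1 (eBayes with trend, pseudocount 1). In simulated data with a small spread between libraries, 200 features were shifted by 3 on the log2 scale, beyond the fold threshold. Of these edgeR called 200 among 12195 genes and limma 200 among 65053 peaks, each with 0 false calls. Low peaks were not among those shifted, and genes under the filter took no part, so their recovery was not tested. The 92 spike-ins took no part in tests of genes. Folds of genes at the floor of 3 counts per library are bounds or ratios of summed counts per effective library size, with 95% exact binomial intervals. Gene positions and peak locations are from GENCODE vM1, and sequences from the NCBIM37 (mm9) genome. DESeq2 1.42.0, other scalings, filters, pseudocounts, blocks and left-out libraries were tried. Other computations used Python 3.11.15, numpy 2.4.6, pandas 2.3.3, scipy 1.17.1 and matplotlib 3.10.9.

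Named were all members called in RNA, the highest member of each role class with a tested gene in each line, the type IV pairs, Itgb1 and Lamc1. Named peaks were those nearest to the starts of these genes within 2 kb and, in either direction, the 4 peaks of highest absolute moderated t, and of each gene list the 2 called members that changed most. Members, lists, motifs and rules were chosen with earlier results of these data known.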

Additional observations from a re-analysis of the deposited data

Results flagged for a closer look

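Over the 40 groups of 5 libraries formed by the 20 named peaks, 2 held a library far from the others, which is about what chance gives (1 in 20 groups). At the Lama1 promoter, αTC1 replicate 5 stood at 54.2 normalized reads, while the other αTC1 libraries ran from 32.6 to 35.3. At the Lamc1 promoter, βTC6 replicate 2, the shallowest pure library, stood at 68.7, with the others between 61.2 and 63.3.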

How the results depend on the processing

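Of the comparisons above, 65 repeats of a main count or relation under another setting stayed within 1.5 times or kept their side of the threshold, and 7 did not. Without the FPKM filter, which tests more genes, 26 members were higher in βTC6 and 8 in αTC1. With limma on log2(FPKM + 1) the numbers were 2 and 1. With a pseudocount of 5, 9 member peaks were higher in βTC6 and 3 in αTC1, and edgeR on recovered reads called 84 higher in βTC6. The cause was not tested. Leaving out each library in turn gave 6 and 3 genes every time, and between 49 and 53 and between 20 and 24 peaks.

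Among named genes and peaks, 558 repeats kept direction and their side of the call, which needs both thresholds. By the FDR alone, 11 repeats lost it (Itga4 and Lamc1 RNA with ERCC scaling, the Itgav and Itga6 promoters with quantile normalization, Itga6 in replicates 4 and 5, and 6 for the Col6a2 promoter) and 15 gained it (Lama1 and Itgb1 RNA and promoters). Of the calls, 10 kept direction but lost the call, 6 genes with limma on log2(FPKM + 1) and peaks of Col1a2, Col4a5 and Itgb5. The Itgb1 promoter peak reversed, to 0.37 with quantile normalization and 0.048 in replicates 4 and 5 alone. If same-numbered replicates were paired between lines is not known. Over all features, their deviations from the line mean correlated between -0.05 and 0.07, which leaves single peaks open. Replicate 5 was lowest in both lines at the Itgav promoter (43.8 in αTC1 and 26.6 in βTC6) and highest in both at the Lama1 promoter (54.2 and 69.0). A replicate block cut the SE from 0.15 to 0.084 at Itgav and from 0.15 to 0.088 at Lama1, but raised it from 0.21 to 0.23 at Col6a2. A replicate block gave 6 and 3 genes and 51 and 24 peaks, and moved the FDR side of Lama1 RNA, its promoter and the Col6a2 promoter. Depth limits the members under 3 counts, whose absence is not shown.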
